A study of Mus musculus with 6 samples.

Results

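The resident Kupffer cell genes described here are 10 genes that mark the macrophages living in the sinusoids of mouse liver: Cd163, Timd4, Clec4f, Vsig4, Marco, Cd5l, Folr2, Id3, Mrc1 and Fcna. They were picked as established markers of this cell, with earlier results of these data known. They were matched by gene symbol through the Ensembl identifiers of the count table. All 10 were found among 49671 genes, and all 10 were among the 16089 genes with enough counts to be tested. Every member had counts in all 6 livers, the lowest being 5 counts of Marco.

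The samples were total RNA libraries from whole liver of C57BL/6J males, 3 per genotype. The control group, labelled WT, was SHMT2 fl/fl, with loxP sites around exons of the gene for mitochondrial serine hydroxymethyltransferase and no Cre named. The SHMT2 HKO group, labelled KO, carried the same floxed alleles with Albumin-Cre, which is active in hepatocytes, so that the macrophages of these livers were not the cells targeted. Both genotypes ate the AMLN diet, rich in fat, fructose and cholesterol, for 18 weeks from 4 weeks of age, and livers were taken at 22 weeks. The comparison asks how loss of the enzyme from hepatocytes altered liver RNA under a diet that produces steatohepatitis.

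Libraries held 23090837 to 34089722 gene counts. Shmt2, the targeted gene, was at 94.6, 109 and 93.9 CPM (counts scaled to a common library total) in control livers 1, 2 and 3 and at 24.9, 28.3 and 19.3 CPM in SHMT2 HKO livers 1, 2 and 3. The lowest control was above the highest SHMT2 HKO liver. All livers carried high levels of hepatocyte transcripts. Summed over 10 hepatocyte markers they were 63678 to 78459 CPM in controls and 75888 to 113106 CPM in SHMT2 HKO livers. The share of counts from mitochondrially encoded genes was 3.25% to 3.63% in controls and 4.30% to 4.97% in SHMT2 HKO livers, and its part in the results below was not tested. In whole tissue, fewer cells of a type and less RNA per cell cannot be told apart.

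Kupffer cells descend from embryonic precursors, renew themselves in the liver, and clear particles, microbes, aged red cells and apoptotic cells from portal blood. Their identity is kept by signals from neighbouring endothelial, stellate and hepatocyte cells, among them CSF1, BMP9 and BMP10 and Notch ligands. In steatohepatitis, resident cells are in part lost, and monocyte-derived macrophages enter. CLEC4F is found almost only on Kupffer cells in the mouse, and TIMD4 is gained late, so that both are widely read as marks of the long-resident cell. MRC1, CD163 and FOLR2 also mark resident-type macrophages in other tissues, and MRC1 and ID3 are made by endothelial cells as well.

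Promoter sequences are shown for the 3 members with the largest differences and for Fcna, the next in order of fold change, since these 4 moved in the same direction. They are bases of the gene's strand upstream of both its RefSeq and its GENCODE start, 5′ to 3′, from RefSeq on GRCm38.p6. For Clec4f and Fcna the GENCODE start lies further upstream than the RefSeq start, and the bases between them are not printed. Capitals mark matches, on either strand, to TGCTGA (the core of sites for MAF factors), GAGGAA (a core bound by PU.1) or AGGTCA (the core of nuclear receptor sites). The stretches lie at chr6:124304401-124304650 on the plus strand for Cd163, chr11:46810549-46810798 on the plus strand for Timd4, chr6:83656188-83656366 on the minus strand for Clec4f and chr2:25628031-25628224 on the minus strand for Fcna.
Cd163: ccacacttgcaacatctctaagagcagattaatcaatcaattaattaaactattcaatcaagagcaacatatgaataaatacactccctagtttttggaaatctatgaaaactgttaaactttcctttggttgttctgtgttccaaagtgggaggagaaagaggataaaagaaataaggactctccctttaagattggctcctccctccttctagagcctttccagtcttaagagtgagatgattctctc
Timd4: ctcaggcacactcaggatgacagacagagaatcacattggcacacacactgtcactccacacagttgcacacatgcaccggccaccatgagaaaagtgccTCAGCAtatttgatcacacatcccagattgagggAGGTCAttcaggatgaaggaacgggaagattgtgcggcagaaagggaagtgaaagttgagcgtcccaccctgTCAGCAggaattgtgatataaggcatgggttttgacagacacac
Clec4f: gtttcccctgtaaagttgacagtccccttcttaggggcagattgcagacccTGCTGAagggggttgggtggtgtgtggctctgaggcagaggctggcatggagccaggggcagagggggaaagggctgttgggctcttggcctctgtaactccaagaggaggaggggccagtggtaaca
Fcna: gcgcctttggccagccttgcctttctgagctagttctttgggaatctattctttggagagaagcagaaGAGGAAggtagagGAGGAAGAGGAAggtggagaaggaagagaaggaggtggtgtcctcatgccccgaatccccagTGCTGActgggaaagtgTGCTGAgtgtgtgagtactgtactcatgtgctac

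The Cd163 stretch held no match to these letters, Timd4 held TGCTGA on the opposite strand at 2 places, and Fcna held both TGCTGA and GAGGAA more than once. Over RefSeq windows from 250 bases before to 50 bases after a start, TGCTGA was in 7 of the 11 windows of the members and in 19.5% of all 32851 windows. GAGGAA was in 6 of the 11 member windows and in 28.3% of all windows. AGGTCA was in 2 member windows, those of Timd4 and of Clec4f, in the latter within the bases not printed, and in 16.3% of all. GGCGCC, a SMAD site, and CACGTG, an E-box, were in none of the 11, against 11.9% and 7.15% of all windows. Folr2 has 2 of the 11 windows, and both held TGCTGA. A match to letters is a description and not a bound site.

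Of the 10 genes, 6 were higher in SHMT2 HKO livers and 0 were lower at an adjusted p under 0.05, by the quasi-likelihood F test of edgeR, with p-values adjusted over all tested genes by the method of Benjamini and Hochberg. The 6 were Cd163, Timd4, Clec4f, Fcna, Folr2 and Vsig4, with increases of 2.81-fold to 34.9-fold. Of all tested genes, 29.0% were called, 12.5% higher and 16.5% lower. At an unadjusted p under 0.05 the counts were the same, 6 higher and 0 lower, as they were with limma-voom and with DESeq2. The same 6 genes had all 3 SHMT2 HKO values above all 3 control values, and 0 had them all below. Over all tested genes the groups did not overlap in 46.9%, 21.9% with SHMT2 HKO above and 25.0% below. The other 4 members, Marco, Cd5l, Mrc1 and Id3, overlapped between groups. The median log2 fold change of the 10 was 1.74, beside 0.03 over all tested genes.

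**Figure D1:**
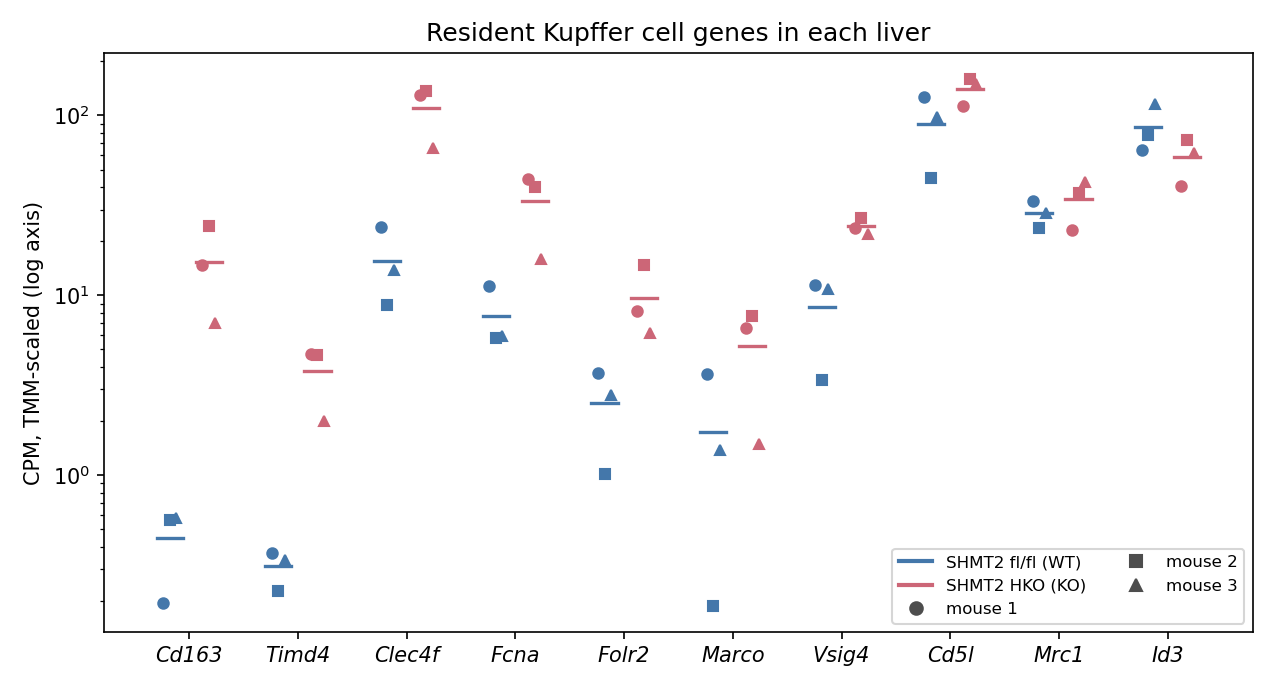
CPM of each of the 10 genes in each liver, on a log axis, with genes ordered by fold change. Circles, squares and triangles are livers 1, 2 and 3 of a genotype and lines are group means. The 6 genes called higher separate the groups completely, while Marco, Cd5l, Mrc1 and Id3 overlap.

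The scavenger receptors covered the widest range of responses. CD163 (ENSMUSG00000008845, chr6:124304656-124330527, GRCm38) takes up haptoglobin-haemoglobin complexes. Its RNA was nearly absent from control livers, with 8, 15 and 22 counts, or 0.196, 0.564 and 0.574 CPM. SHMT2 HKO livers held 347, 478 and 178 counts, or 14.7, 24.2 and 7.01 CPM. Every SHMT2 HKO liver was thus more than an order of magnitude above every control. Cd163 had a log2 fold change of 5.12 (SE 0.57, adjusted p = 0.00132), a 34.9-fold increase that ranked 14th by size among the 2012 genes called higher.

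MARCO (ENSMUSG00000026390, chr1:120474538-120505024), a class A scavenger receptor for bacteria and particles, varied too much within genotype to be called. Control livers held 150, 5 and 53 counts and SHMT2 HKO livers 155, 152 and 38 counts, with means of 1.75 ± 1.77 and 5.26 ± 3.31 CPM (SD, n = 3). As CPM, control liver 1 lay above SHMT2 HKO liver 3, and the highest control was 19.5 times the lowest, against 1.40 to 3.66 times for the other 9 genes. The log2 fold change of Marco was 1.55 (SE 0.91, adjusted p = 0.245). It was 2.68 without control liver 1 and 1.05 without control liver 2, and in neither case was Marco called.

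CD5L (ENSMUSG00000015854, chr3:87357881-87371073), also called AIM, is a secreted scavenger protein of tissue macrophages. Cd5l was at 127, 45.0 and 98.1 CPM in controls and at 113, 159 and 150 CPM in SHMT2 HKO livers. Only control liver 2 stood well below the rest, and SHMT2 HKO liver 1 was under control liver 1. The log2 fold change of Cd5l was 0.64 (SE 0.34, adjusted p = 0.194), and it turned to −0.09 when libraries were scaled by the spiked-in ERCC RNAs.

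MRC1 (ENSMUSG00000026712, chr2:14229392-14332057), the mannose receptor CD206, is shared by Kupffer cells and sinusoidal endothelium. Mrc1 values were 33.3, 23.7 and 28.7 CPM in controls and 23.1, 36.9 and 42.5 CPM in SHMT2 HKO livers, so that SHMT2 HKO liver 1 was the lowest of all 6. The log2 fold change of Mrc1 was 0.26 (SE 0.23, adjusted p = 0.432), with a sign that turned to −0.15 without composition scaling and to −0.36 with ERCC scaling. Endothelial markers in the same livers are given below.

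The receptors for apoptotic cells and complement were both higher. TIM-4, the product of Timd4 (ENSMUSG00000055546, chr11:46810800-46844332), binds phosphatidylserine on dying cells. Timd4 counts were low, 15, 6 and 13 in controls and 111, 92 and 51 in SHMT2 HKO livers. On the CPM scale these were 0.367, 0.226 and 0.339 against 4.71, 4.66 and 2.01. The lowest SHMT2 HKO liver was far above the highest control, and the log2 fold change of Timd4 was 3.57 (SE 0.43, adjusted p = 0.00149), or 11.8-fold.

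CRIg, the product of Vsig4 (ENSMUSG00000044206, chrX:96247203-96293438), captures C3b-coated particles from blood. Vsig4 was at 11.4, 3.39 and 10.9 CPM in controls and at 23.8, 27.0 and 22.0 CPM in SHMT2 HKO livers. The SHMT2 HKO livers lay within 1.23-fold of each other, the tightest of the 10 genes in that genotype. Vsig4 was the smallest of the called increases, with a log2 fold change of 1.49 (SE 0.39, adjusted p = 0.0258). Its call was lost without control liver 3 (adjusted p = 0.0542), without SHMT2 HKO liver 2 (0.0692), without SHMT2 HKO liver 3 (0.0632), without composition scaling (0.0669), with ERCC scaling (0.390) and with no filter beyond 1 count (0.162).

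The lectins CLEC4F and ficolin A also had higher RNA levels, unlike the mannose-binding MRC1. CLEC4F (ENSMUSG00000014542, chr6:83644542-83656187) is a C-type lectin for galactose-type sugars. Clec4f counts were 977, 234 and 533 in controls and 3045, 2705 and 1675 in SHMT2 HKO livers, or 23.9, 8.80 and 13.9 CPM against 129, 137 and 65.9 CPM. The lowest SHMT2 HKO liver, liver 3, still stood well above the highest control. The log2 fold change of Clec4f was 2.83 (SE 0.42, adjusted p = 0.00391), or 7.09-fold, and Clec4f was called higher in all 16 alternative settings.

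Ficolin A, the product of Fcna (ENSMUSG00000026938, chr2:25624666-25628030), is a secreted lectin that starts the lectin pathway of complement. Fcna was at 11.3, 5.76 and 5.92 CPM in controls and at 44.2, 40.1 and 15.9 CPM in SHMT2 HKO livers. SHMT2 HKO liver 3 was again the lowest of its group and above all controls. Fcna had a log2 fold change of 2.12 (SE 0.43, adjusted p = 0.0110), or 4.34-fold, and missed the threshold without control liver 2 (adjusted p = 0.0543), without control liver 3 (0.0514), with ERCC scaling (0.144) and with no filter beyond 1 count (0.0878). Its exons overlap those of the antisense gene Fcnaos by 90 bases, and Fcnaos itself had 3 to 19 counts per liver. The related Fcnb, ficolin B, had 0 counts in all 6 livers.

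Folr2 (ENSMUSG00000032725, chr7:101839988-101857194) encodes folate receptor beta, a membrane folate-binding protein of resident-type macrophages. Its levels were 3.72, 1.02 and 2.79 CPM in controls and 8.19, 14.7 and 6.18 CPM in SHMT2 HKO livers. The groups did not overlap, and the log2 fold change of Folr2 was 1.92 (SE 0.48, adjusted p = 0.0209). The call was lost without control liver 3 (adjusted p = 0.0676), without SHMT2 HKO liver 2 (0.0689), with ERCC scaling (0.238) and with no filter beyond 1 count (0.0992). The exons of Folr2 overlap the opposite-strand gene Gm10602 by 975 bases, and since strand use in counting was not given in the sources used here, some reads could belong to either. Gm10602 itself had 17 to 40 counts per liver.

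ID3 (ENSMUSG00000007872, chr4:136143497-136145755) is a transcriptional regulator that blocks DNA binding by its helix-loop-helix partners, is induced by BMP signals and is needed for Kupffer cell development. Id3 was the only member with a fitted decrease under the main TMM scaling. Its values were 64.7, 78.0 and 117 CPM in controls and 40.6, 73.4 and 61.7 CPM in SHMT2 HKO livers. SHMT2 HKO liver 2 lay above control liver 1, and the log2 fold change of Id3 was −0.56 (SE 0.27, adjusted p = 0.156). Without composition scaling Id3 was called lower, at −0.97 (adjusted p = 0.0265), and with ERCC scaling it was at −1.24 (adjusted p = 0.0577).

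Low values within a genotype fell largely in the same livers. In control liver 2, 8 of the 10 genes were at the lowest value of the 3 controls, and in SHMT2 HKO liver 3, 7 of the 10 were at the lowest value of that group. The share of all tested genes lowest in these 2 livers was not computed. With both of these livers left out, a comparison chosen after seeing the data, the same 6 genes were called higher and 0 were called lower. The livers were picked by the values of these same genes, so these counts are not independent support. In that fit the log2 fold changes were 5.63 for Cd163, 3.68 for Timd4, 2.78 for Clec4f, 2.26 for Fcna, 1.78 for Folr2 and 1.16 for Vsig4.

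Scaled by exon length, the order of the genes changed between genotypes. In CPM per kilobase of exon (RPKM), control livers were led by Id3 (48.2 ± 15.0, SD, n = 3) and Cd5l (44.2 ± 20.4), whose ranges overlapped. Clec4f (6.29 ± 3.11), Vsig4 (5.77 ± 3.03), Fcna (5.58 ± 2.30) and Mrc1 (4.48 ± 0.751) followed with ranges that overlapped from each to the next. Below them came Folr2 (1.62 ± 0.888), Marco (0.907 ± 0.919), Timd4 (0.143 ± 0.0344) and Cd163 (0.0814 ± 0.0395), again with neighbours overlapping. The ranges separated only between Cd5l and Clec4f and between Mrc1 and Folr2.

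In SHMT2 HKO livers Cd5l was first at a mean of 69.1 RPKM (55.5 to 78.1). Clec4f came next at 44.8 ± 15.8 RPKM (SD, n = 3), its highest liver at 55.4 and the lowest liver for Cd5l at 55.5. Id3 (32.7 ± 9.27), Fcna (24.3 ± 11.1) and Vsig4 (16.4 ± 1.71) followed with overlapping neighbours. A gap then separated Vsig4 from Folr2 (6.27 ± 2.88), Mrc1 (5.37 ± 1.57), Cd163 (2.80 ± 1.58), Marco (2.73 ± 1.72) and Timd4 (1.75 ± 0.712), each overlapping the next. These are levels of RNA in whole liver and carry no test between genes.

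The scaling between libraries moved every one of these differences. TMM factors, which correct for a change in RNA composition, were 1.13 to 1.21 in controls and 0.802 to 0.984 in SHMT2 HKO livers. Without them the median log2 fold change of all tested genes was −0.40, and with ERCC scaling it was −0.69. Of all calls, 43.1% were higher under TMM, 9.87% without it and 3.73% under ERCC scaling. Under ERCC scaling Cd163 (4.19), Timd4 (2.62) and Clec4f (1.88) were still called higher, and 0 members were called lower. Relative to the ERCC-scaled median of all genes, the log2 differences were 4.88 for Cd163, 3.32 for Timd4, 2.57 for Clec4f, 1.82 for Fcna, 1.71 for Folr2, 1.38 for Vsig4, 1.12 for Marco, 0.60 for Cd5l, 0.33 for Mrc1 and −0.55 for Id3. ERCC RNAs took 1.42% to 1.84% of counts in controls and 2.75%, 2.31% and 1.35% in SHMT2 HKO livers 1, 2 and 3.

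**Figure D2:**
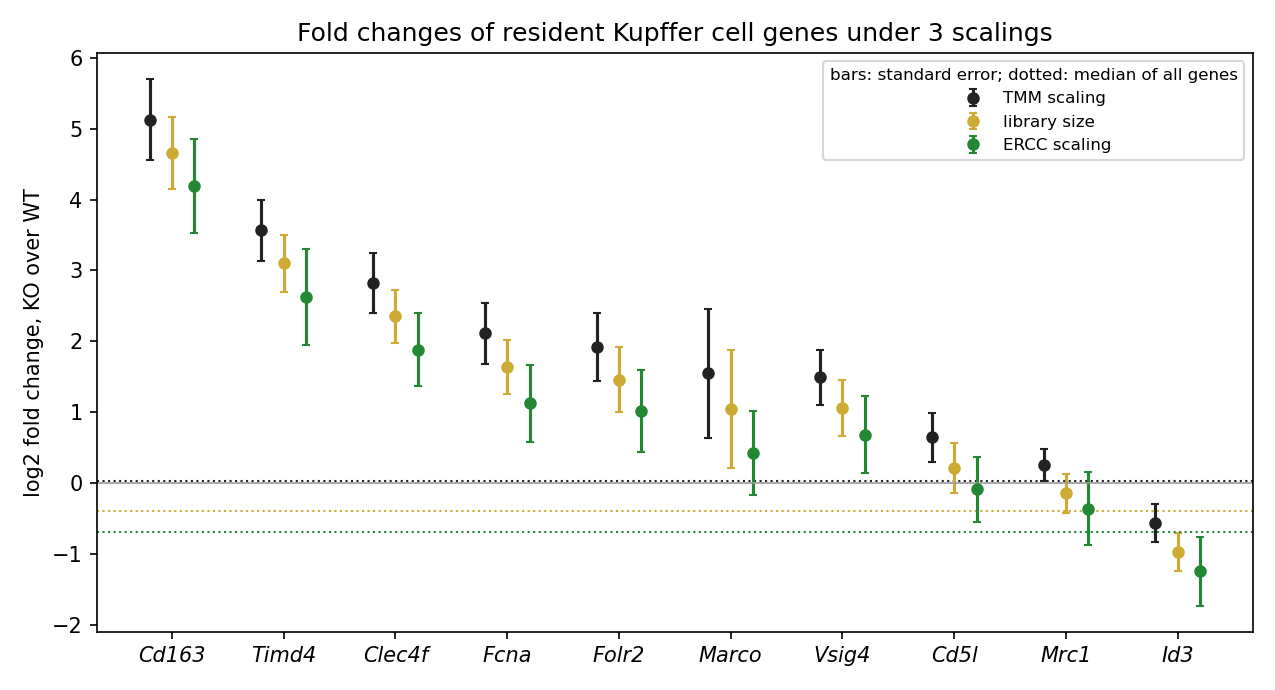
Log2 fold change (SHMT2 HKO over control) of each gene with its SE as the bar, under TMM, library-size and ERCC scaling; dotted lines are the median of all tested genes under each scaling. The order of the genes is nearly kept while all values shift down with the median, and Cd163, Timd4 and Clec4f stay well above 0 under the 3 scalings.

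Genes shared by macrophages in general moved the other way. Of 16 pan-macrophage genes, 13 were lower in SHMT2 HKO livers and 0 higher, with a median log2 fold change of −0.84, and 0 were higher at an unadjusted p under 0.05, with limma-voom or with DESeq2. Their summed level was 1381 to 1657 CPM in controls and 698 to 881 CPM in SHMT2 HKO livers. Ms4a7, a macrophage membrane protein that in liver is also linked to monocyte-derived cells, had the largest decrease of the list. It was at 24.1, 17.2 and 20.0 CPM in controls and at 1.23, 2.53 and 3.50 CPM in SHMT2 HKO livers, which is −3.07 as a log2 fold change (SE 0.34, adjusted p = 0.00123). Fcgr1, a high-affinity IgG receptor, was lower by −1.33 (adjusted p = 0.00136), and C1qa, a chain of complement C1q, by −1.01 (adjusted p = 0.00137). Adgre1, which encodes F4/80, was at 32.9, 23.0 and 29.9 CPM against 11.5, 18.0 and 22.6 CPM, with all SHMT2 HKO values below all controls and an adjusted p of 0.0588. With limma-voom and with DESeq2, Adgre1 was called lower, as 1 of 14 genes each time. With edgeR under ERCC scaling it was not (adjusted p = 0.0628).

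A ratio within a library does not depend on the scaling between libraries, so each gene was also expressed as a percentage of the summed pan-macrophage CPM of its own liver. The sum itself was 1.93-fold lower in SHMT2 HKO livers, so a gene of equal CPM would have a higher ratio there. Every SHMT2 HKO ratio was above every control ratio in 8 of the 10 genes, all but Marco and Id3, and in 67.5% of all tested genes, so the count of 8 sets the members little apart. Clec4f was 1.44%, 0.638% and 0.870% of that sum in controls and 18.5%, 16.6% and 7.48% in SHMT2 HKO livers, a 14.2-fold difference in geometric mean. Cd163 went from 0.0118%, 0.0409% and 0.0359% to 2.11%, 2.94% and 0.795%, a 65.8-fold difference. For Cd5l and Mrc1, whose CPM overlapped, the ratios did not overlap, as for most tested genes. Cd5l was 7.64%, 3.26% and 6.14% in controls and 16.2%, 19.3% and 17.0% in SHMT2 HKO livers, and Mrc1 was 2.01%, 1.72% and 1.80% against 3.31%, 4.48% and 4.83%. The remaining differences in geometric mean were 22.5-fold for Timd4, 8.09-fold for Fcna, 7.99-fold for Folr2 and 6.24-fold for Vsig4. These ratios combine the change of the gene with that of the sum.

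Taken against Adgre1 alone, which was 1.69-fold lower in SHMT2 HKO livers, the same 8 genes did not overlap between groups, and Marco and Id3 did. Of all tested genes, 45.1% had every SHMT2 HKO ratio to Adgre1 above every control. Mrc1 counts were 101%, 103% and 96.2% of Adgre1 in controls and 202%, 204% and 188% in SHMT2 HKO livers, a nearly constant ratio within each genotype although the CPM of both genes varied.

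**Figure D3:**
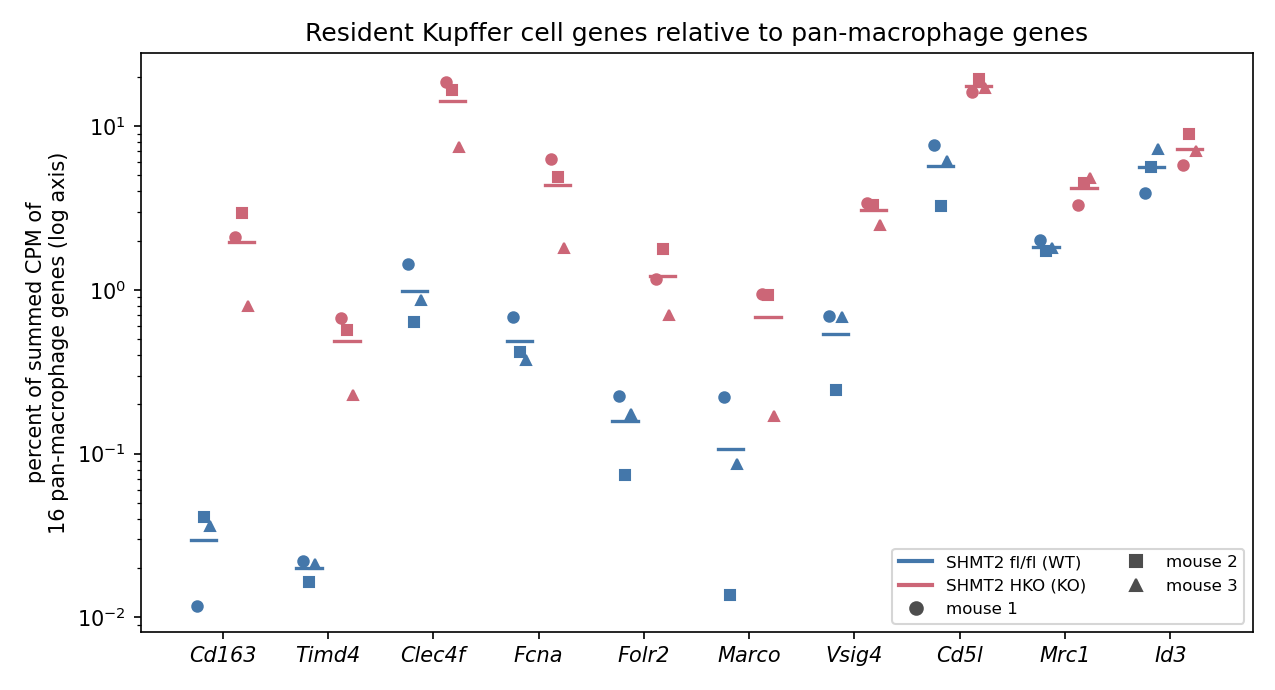
Each gene as a percentage of the summed CPM of 16 pan-macrophage genes in the same liver, on a log axis, with circles, squares and triangles for livers 1, 2 and 3 and lines for group means. All genes except Marco and Id3 have every SHMT2 HKO liver above every control, as do 67.5% of all tested genes, the sum being 1.93-fold lower in SHMT2 HKO livers.

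Of 15 further Kupffer cell genes, 5 were higher and 1 lower, with a median log2 fold change of 0.36, and ERCC scaling left 0 higher and 1 lower and library-size scaling 1 and 1. Fabp7, a brain-type fatty acid-binding protein that mouse Kupffer cells make, went from 1.24 ± 0.665 CPM (SD, n = 3) in controls to 5.26 ± 1.55 CPM in SHMT2 HKO livers. Its log2 fold change was 2.07 (SE 0.40, adjusted p = 0.00790). Nr1h3, which encodes the sterol receptor LXR alpha that Kupffer cells need and hepatocytes also make, showed a log2 fold change of 0.73 (adjusted p = 0.0119) under TMM and of −0.07 under ERCC scaling. Hpgd, a prostaglandin dehydrogenase, was at 0.85 (adjusted p = 0.0167), and the ion channel gene Kcna2 at 1.77 (adjusted p = 0.0255). Slc16a9, a carrier, was lower by −0.99 (adjusted p = 0.0230). Clec1b, the lectin receptor CLEC-2 and an early Kupffer cell marker, had a log2 fold change of 0.75 that was not called (adjusted p = 0.0776).

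Genes of recruited and lipid-associated macrophages were lower as a group. Of 15, 10 were lower and 1 higher, with a median log2 fold change of −1.55 and a summed level of 1581 to 1662 CPM in controls and 342 to 618 CPM in SHMT2 HKO livers. The highest of these sums in the SHMT2 HKO group was in liver 3, where 7 of the 10 resident genes were lowest. Liver 3 also had the highest pan-macrophage sum of its group (881 CPM) and the lowest hepatocyte sum (75888 CPM). Its difference was thus not limited to resident and recruited genes. Cx3cr1, the fractalkine receptor, showed a log2 fold change of −1.93 (adjusted p = 0.000912), Spp1, which encodes osteopontin, of −2.62 (adjusted p = 0.00134), and the lipid receptor gene Trem2 of −1.76 (adjusted p = 0.0192). Fabp5, a fatty acid-binding protein, was called higher under TMM at 1.38 (adjusted p = 0.0134), a call lost under ERCC scaling (0.43, adjusted p = 0.545). The 4 genes not called included Gpnmb (−1.15, adjusted p = 0.369) and Ccr2 (−0.99, adjusted p = 0.100). Which cells of the whole liver made the RNA of these 15 genes was not tested. The count of 10 fell to 5 without control liver 1 or without control liver 3, and to 6 without SHMT2 HKO liver 2.

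Signals and regulators of the Kupffer cell niche were lower in 8 of 23 genes and higher in 1, with a median log2 fold change of −0.37. Bmp10, a BMP ligand made in liver by stellate cells, was the one that was higher, with 23, 1 and 6 counts in controls and 44, 93 and 76 in SHMT2 HKO livers. Its fitted log2 fold change was 3.55 (SE 0.71, adjusted p = 0.00884). Gdf2, which encodes the related ligand BMP9, had a log2 fold change of 0.04. Acvrl1, the receptor ALK1 through which both ligands signal, was lower by −1.31 (adjusted p = 0.00155), and Id1, a BMP target and relative of Id3, by −1.17 (adjusted p = 0.0170). The other ID genes of this list, Id2 (0.06, adjusted p = 0.856) and Id4 (−0.25, adjusted p = 0.524), were not called. Csf1, the macrophage growth factor, was lower by −0.88 (adjusted p = 0.00516). Irf8, a regulator of macrophage development, was at −1.17 (adjusted p = 0.00111) and Rbpj, the nuclear effector of Notch, at −0.58 (adjusted p = 0.00894). The count of 8 lower genes was 5 without control liver 2 and 4 without control liver 3.

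Of 9 relatives of the members by family, 6 could be tested. Mrc2, a mannose receptor paralog of fibroblasts, was lower by −2.08 (adjusted p = 0.00126) where Mrc1 was not called. Havcr2, which encodes TIM-3, was lower by −1.45 (adjusted p = 0.0110), and Timd2, a further TIM gene, was higher by 0.98 (adjusted p = 0.0105) under TMM but not called under ERCC scaling (0.12, adjusted p = 0.866). Msr1, a class A scavenger receptor like Marco, was at 0.12 on the log2 scale (adjusted p = 0.809). Folr1, Fcnb and Havcr1 had too few counts to be tested.

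Other cell types of the liver moved with genotype too, and their part in the results for the 10 genes was not tested. Of 15 sinusoidal endothelial genes, 4 were higher and 0 lower by edgeR. The count lower was also 0 with limma-voom, with DESeq2 and at an unadjusted p under 0.05. Without composition scaling 1 was higher and 4, Eng, Cdh5, Stab1 and Pecam1, were lower. That scaling called 5462 of all 16089 tested genes, only 539 of them higher, so lower calls were common in general. With ERCC scaling 0 of the 15 endothelial genes were called higher. Their summed level was 630 to 656 CPM in controls and 610 to 852 CPM in SHMT2 HKO livers. Clec4g, a lectin of sinusoidal endothelium, was at 22.8, 9.56 and 21.4 CPM in controls and at 69.0, 71.1 and 66.1 CPM in SHMT2 HKO livers, with control liver 2 lowest as for most of the 10 genes. It was higher by 1.93 on the log2 scale (adjusted p = 0.00320). Stab2 was at 0.55 (adjusted p = 0.00781) and Gpr182 at 0.87 (adjusted p = 0.00830) under TMM, while under ERCC scaling Stab2 was at −0.15. Stab1 was not called under TMM (−0.35, adjusted p = 0.154).

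Of 12 stellate cell and fibroblast genes, 2 were higher and 5 lower under TMM, 0 and 8 without composition scaling and 0 and 4 with ERCC scaling. Their sum went from 1445 to 1494 CPM in controls to 516 to 1106 CPM in SHMT2 HKO livers, highest in liver 3. Among 16 tested genes of other leukocytes, 9 were lower and 0 higher by edgeR, the count higher was also 0 with limma-voom, with DESeq2 and at an unadjusted p under 0.05, and their sum went from 41.6 to 50.1 CPM to 15.9 to 24.4 CPM. Of 10 hepatocyte genes, 3 were higher and 0 lower by edgeR under TMM, but 0 were higher and 1 was lower both under ERCC scaling and without composition scaling. Under TMM the count lower was also 0 with limma-voom, with DESeq2 and at an unadjusted p under 0.05.

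**Figure D4:**
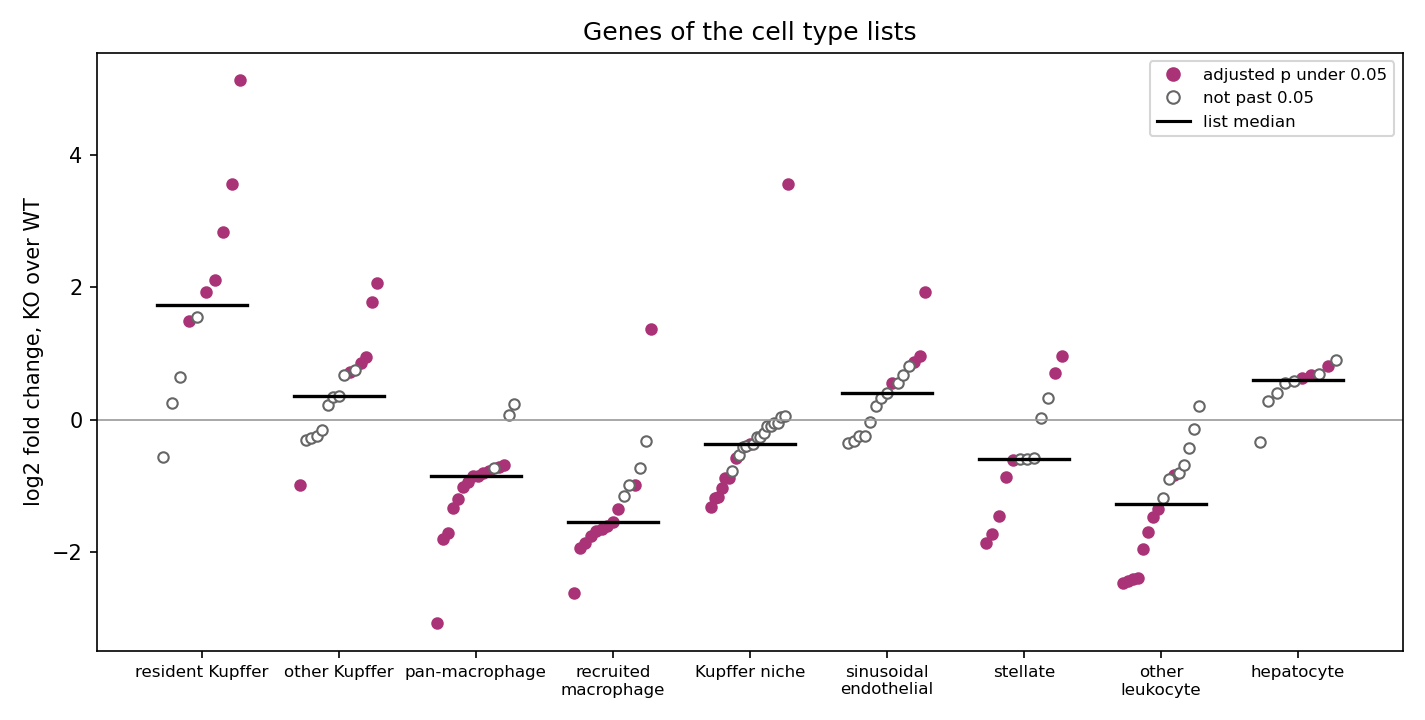
Log2 fold change (SHMT2 HKO over control, TMM scaling) of each tested gene in 9 gene lists, with filled points for adjusted p under 0.05 and a line at each list's median. The resident Kupffer cell genes have a median of 1.74, while the pan-macrophage (−0.84) and recruited macrophage (−1.55) lists lie mostly below 0.

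The genes whose pattern over the 6 livers was most like that of Clec4f were found by the root mean square difference of centred log2 CPM, where 0 is the same pattern. A prior count of 2 was added before the log, which draws low values together. Outside the 10 they were Rfx4 (0.197), Elovl3 (0.222), Tmem28 (0.250), Slc15a5 (0.317) and Mup-ps4 (0.339). Elovl3, a fatty acid elongase, went from 18.8, 9.10 and 12.2 CPM in controls to 152, 168 and 65.6 CPM in SHMT2 HKO livers. Mup-ps4 is a pseudogene of the major urinary protein family, so that its few reads may belong to its near-identical copies. It was at only 0.147, 0.0376 and 0.0261 CPM in controls, so its difference to Clec4f depends on the prior count. Among the 10, Timd4 was nearest to Clec4f (0.337), followed by Fcna (0.472), Folr2 (0.534), Vsig4 (0.720), Marco (0.952), Cd5l (1.14), Cd163 (1.30), Mrc1 (1.46) and Id3 (1.86).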

How the data were processed

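The authors deposited raw gene counts (Trimmomatic 0.36, STAR 2.5.2b and featureCounts of Subread 1.5.2, by the methods and the submitters' processing notes) for 49671 Ensembl genes and 92 ERCC spike-in RNAs. Symbols, lengths and positions came from GENCODE M21 on GRCm38; 345 identifiers without annotation held 0.0416% of counts. The 10 members and all gene lists were chosen with earlier results of these data known.

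Genes were filtered by filterByExpr, scaled by TMM without the ERCC RNAs and tested with edgeR 4.0.16 (robust quasi-likelihood F test, genotype only, R 4.3.3), with Benjamini-Hochberg adjustment over 16089 genes and a threshold of 0.05. The study itself used limma-voom, an alternative here. The fitting code was tested on simulated data. SE is the log2 fold change divided by the square root of F. CPM used TMM-scaled library sizes. A floor of 3 counts is 0.0734 to 0.152 CPM, which covers counting error only. Named genes were all members, and of each list described by named genes 2 to 4 genes with the smallest adjusted p per direction and its first gene (stellate, leukocyte and hepatocyte lists are given as counts and sums). Gpnmb, Ccr2, Gdf2, Id1, Id2 and Id4 were added after their values were seen. Promoter windows are from RefSeq (GRCm38.p6), which matched all 10 members. The labels number the samples and do not name the animals, so p-values measure the spread between these 6 libraries; each pair within a genotype differed beyond sampling noise (chi-square per degree of freedom 23.6 to 140). Alternatives were limma-voom 3.58.1, DESeq2 1.42.0, other scalings and filters, a replicate block and leaving out each library.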

Additional observations from a re-analysis of the deposited data

How the results depend on the processing

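In 16 alternative settings, Clec4f was called higher each time, and Cd163 and Timd4 in each of the 15 that tested them. The count of 6 members called higher was 3 with ERCC scaling and 3 with no filter beyond 1 count (Clec4f, Cd163 and Timd4 both times), and 3 to 6 when single livers were left out, with 3 without control liver 3. The count of 0 lower members was 1 without TMM (Id3). Cd5l turned to −0.0884 with ERCC scaling. Mrc1 turned to −0.15 without TMM, −0.36 with ERCC scaling and −0.0754 without control liver 2 and SHMT2 HKO liver 3, with 0.48 without SHMT2 HKO liver 1, and its log2 ratio to the pan-macrophage sum went from 1.18 to 0.85 without Lyz2, Cd14 and the C1q genes. Further Kupffer genes called lower ranged from 0 to 1 over the single leave-outs (0 without control liver 2 or 3), recruited macrophage genes called lower from 5 to 12, and niche genes called lower from 4 to 10. With at least 10 counts in every sample, niche genes called higher were 0 in place of 1. That filter tested 22 niche genes and left out Bmp10 for its low counts in controls. Sinusoidal endothelial genes called lower were 4 without TMM in place of 0. Pan-macrophage genes called lower stayed between 11 and 14 in all 16. Apart from the filtering out of Bmp10, the cause was not tested in these cases. Over all genes, 4663 calls became 2866 with ERCC scaling and 2426 to 5597 over the single leave-outs. Same-numbered livers did not deviate together (correlations −0.05, 0.01 and −0.08), so the numbers do not pair them; with the replicate as a block, 5 members were called higher (Folr2 was lost, adjusted p = 0.0509), the other counts were 0 resident lower, 1 further Kupffer lower, 13 pan-macrophage lower, 11 recruited lower, 7 niche lower, 1 niche higher and 0 endothelial lower, and all calls numbered 3584. The low counts of Timd4, Cd163 and Marco in controls limit how precisely their folds are known.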

Other observations

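Within the 10 genes, the mix also differed between genotypes, in ratios chosen after their values were seen and given with no test. Cd163 counts were 0.819%, 6.41% and 4.13% of Clec4f counts in controls and 11.4%, 17.7% and 10.6% in SHMT2 HKO livers. Timd4 counts were 1.54%, 2.56% and 2.44% of Clec4f counts in controls and 3.65%, 3.40% and 3.04% in SHMT2 HKO livers. Both markers therefore stood higher against Clec4f in every SHMT2 HKO liver than in any control. For Timd4 the gap was narrow, 2.56% in control liver 2 against 3.04% in SHMT2 HKO liver 3. It rests on 6 and 51 Timd4 counts, so counting error could account for it. Cd5l went the other way, from 530%, 511% and 705% of Clec4f counts in controls to 87.4%, 116% and 227% in SHMT2 HKO livers. Vsig4 did so as well, from 47.9%, 38.5% and 78.0% to 18.4%, 19.7% and 33.4%. Clec4f itself was 7.09-fold higher in SHMT2 HKO livers, so a gene with a smaller increase tends to fall against it. The share of all tested genes with such a fall, or with a rise like those of Cd163 and Timd4, was not computed. Marco counts were 15.4%, 2.14% and 9.94% of Clec4f counts in controls and 5.09%, 5.62% and 2.27% in SHMT2 HKO livers, and here the genotypes overlapped. These ratios are made within a library and do not depend on scaling.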
